A study of Mus musculus with 17 samples.

Results

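Sox genes encode transcription factors with an HMG box, a domain that binds a short DNA sequence and bends it, and they usually act together with partner factors. They are grouped by sequence: SoxB1 (Sox2) keeps neural progenitors uncommitted, SoxB2 (Sox21) opposes SoxB1, SoxC (Sox4, Sox11, Sox12) acts as cells leave the progenitor state and in young neurons, SoxD (Sox5, Sox6) lacks an activation domain and modulates other Sox proteins, and SoxE (Sox8) acts in glial and neural crest cells. In the developing retina Sox2 marks progenitors and Müller glia, and Sox4 and Sox11 are needed for retinal ganglion cells. The 8 members described here (Sox2, Sox4, Sox5, Sox6, Sox8, Sox11, Sox12 and Sox21) were taken by gene symbol out of 18836 genes listed in at least 1 library, and all 8 were listed.

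The RNA was from mouse neural retina progenitor cells (mNRPCs), a cell line derived from the neural retina of adult C57BL/6 mice and propagated in defined medium. Cells were grown in basic medium (BM), in BM with basic fibroblast growth factor (B), in BM with CHIR99021, an inhibitor of the kinase GSK3 that raises Wnt signalling (C), or in BM with both (BC), and harvested on days 1, 3, 5 and 7. The day 0 control is labelled as untreated, and the study describes it as cells in BM. With it these made 17 libraries, 1 per treatment and day, so no treatment had a replicate on the same day and nothing says whether the libraries came from separate cultures. Total expected counts were 17571973 to 19428744 per library, with a median of 18274989. The 8 libraries with bFGF (B and BC) were compared with the 8 without (BM and C). BM and C of the same day stood in for repeats, as did B and BC, after an average CHIR99021 effect was removed.

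The cells were checked against markers of retinal progenitors. Pax6, Six3, Nes, Hes1 and Ccnd1, 5 of 9 markers, had a mean of at least 1 FPKM (fragments scaled to transcript length and to the library's mapped reads). Pax6 was 24.20 FPKM on day 0, between 42.16 and 207.22 without bFGF and between 10.71 and 82.35 with bFGF. Rax and Six6, which act in the early retinal field, were at or near 0, with no library above 0.07 FPKM, and Lhx2 ran from 0.04 to 2.35 FPKM. Summed markers of rods and cones did not exceed 1.30 FPKM, those of astrocytes 0.42 FPKM and those of endothelial cells 1.34 FPKM. Those of retinal pigment epithelium did not exceed 2.03 FPKM, those of microglia 2.62 FPKM and those of oligodendrocyte lineage and Schwann cells 7.87 FPKM. The 6 pericyte and fibroblast markers, 4 of them with a mean of at least 1 FPKM, summed to 28.72 FPKM on day 0, 37.13 to 513.89 FPKM without bFGF and 9.71 to 43.20 FPKM with bFGF. Acta2, the smooth muscle actin, was 22.26 to 376.14 FPKM without bFGF and 1.14 to 15.43 FPKM with it, while Rgs5 and Lum did not exceed 0.10 FPKM. Müller glia markers, 3 of 7 with a mean of at least 1 FPKM, summed to 30.59 to 330.95 FPKM without bFGF and 30.44 to 159.07 FPKM with it. The 3 did not move together: over all days Glul rose by 0.70 on the log2 scale with bFGF (edgeR), while Apoe and Dkk3 changed by -0.63 and -0.52. Of the markers of ganglion and amacrine cells, Tfap2a (27.04 to 94.29 FPKM without bFGF, 17.43 to 37.94 with) was the only 1 of 7 with a mean of at least 1 FPKM. Whether cells of these types were present, and their part in the Sox values, was not tested.

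The treatments could be seen in genes known to respond to them. The 6 FGF response genes (Spry1, Spry2, Spry4, Dusp6, Etv4 and Etv5) summed to 16.65 to 57.86 FPKM without bFGF and to 106.18 to 188.00 FPKM with bFGF, with no overlap. They summed to 110.68 FPKM in the day 0 control, within the range with bFGF. Wnt response genes summed to 3.54 to 12.06 FPKM without CHIR99021 and 7.33 to 34.45 FPKM with it, which overlapped. The 4 libraries with bFGF on days 5 and 7 stood apart in composition: their scaling factors (trimmed mean of M values, TMM) were 0.754 to 0.816, against 1.015 to 1.127 in the other cultured libraries. On unscaled log2(FPKM + 1) values the median gene therefore shifted by -0.25 with bFGF over all days and by -0.48 on day 7, and the edgeR changes below are relative to that shift. Of all genes called for the mean bFGF effect, 49.5% were higher with bFGF after scaling and 29.9% on the unscaled values.

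Sox2, Sox4 and Sox11, the members the results turn on, are each encoded by a single exon. In GRCm38, the build named mm10 by the submitters, Sox2 lies at chr3:34650405-34652461 on the plus strand, within the span of the long RNA gene Sox2ot and clear of its exons. Sox4 lies at chr13:28948919-28953713 on the minus strand and shares exon bases with Gm26735, a long RNA gene on the opposite strand. Sox11 lies at chr12:27334264-27342574 on the minus strand. Neither Sox2ot nor Gm26735 was listed in any library, and whether the libraries kept strand is not given in the sources used here. The 250 bases before the RefSeq start of each gene (GRCm38.p6) are printed 5′ to 3′ on the gene's own strand. These starts differ from those of the spans above, which are from GENCODE. The last bases of the Sox4 window lie within the Sox4 span given above. Whether these windows bear on the response to bFGF was not tested. Capitals mark CCAAT boxes (CCAAT or, on the other strand, ATTGG) and GC boxes (GGGCGG or CCGCCC), and no marked match overlaps another:
Sox2, chr3:34649745-34649994, plus strand: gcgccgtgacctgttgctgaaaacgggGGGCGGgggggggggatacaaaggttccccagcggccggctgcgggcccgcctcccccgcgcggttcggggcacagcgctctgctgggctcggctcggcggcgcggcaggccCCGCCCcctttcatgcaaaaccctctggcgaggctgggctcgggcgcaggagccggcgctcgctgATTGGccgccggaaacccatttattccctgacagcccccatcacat
Sox4, chr13:28953700-28953949, minus strand: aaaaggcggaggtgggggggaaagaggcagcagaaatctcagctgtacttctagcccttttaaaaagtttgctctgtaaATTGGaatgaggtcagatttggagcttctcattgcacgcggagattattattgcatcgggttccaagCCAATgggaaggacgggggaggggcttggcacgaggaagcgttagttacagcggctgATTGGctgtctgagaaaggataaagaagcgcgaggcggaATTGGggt
Sox11, chr12:27342719-27342968, minus strand: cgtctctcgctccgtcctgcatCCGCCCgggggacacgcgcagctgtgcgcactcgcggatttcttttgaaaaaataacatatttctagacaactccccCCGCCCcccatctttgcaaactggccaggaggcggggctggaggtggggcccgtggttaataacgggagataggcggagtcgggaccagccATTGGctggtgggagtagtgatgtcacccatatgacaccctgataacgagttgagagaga

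The Sox2 window was 72.0% G or C, the Sox11 window 58.0% and the Sox4 window 50.8%, against a median of 52.4% over 32851 mouse promoter windows of the same length. The Sox4 window held 4 CCAAT boxes and no GC box, while the Sox2 and Sox11 windows each held 1 CCAAT box and 2 GC boxes. A CCAAT box was found in 33.8% of all windows and a GC box in 32.7%. The other 6 motifs searched on both strands had no match in the 3 windows: a TCF/LEF core (CTTTGA, in 13.8% of all windows), AP-1 (TGANTCA, 6.7%), ETS (CCGGAAG, 6.9%), a SOX core (ACAAT, 27.7%), a TATA box (TATAAA, 12.4%) and an octamer (ATGCAAAT, 1.6%).

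The 8 genes were at very different levels, and only Sox2, Sox4 and Sox11 reached a mean of 1 FPKM. On day 0 Sox2 was 27.72 FPKM, Sox4 19.56 and Sox11 2.38, and these made up 55.4%, 39.1% and 4.76% of the summed FPKM of the members. Sox12 was 0.20 FPKM, Sox21 0.08, Sox6 0.06 and Sox5 0.04, and Sox8 was listed at 0. FPKM is per transcript length, so these levels can be set against each other. Sox2 was the highest member in every library except B on day 3, where Sox4 was higher (42.79 against 40.36 FPKM). Over the 8 libraries without bFGF the members summed to 84.94 to 139.44 FPKM, and with bFGF to 55.12 to 91.77 FPKM.

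**Figure D1:**
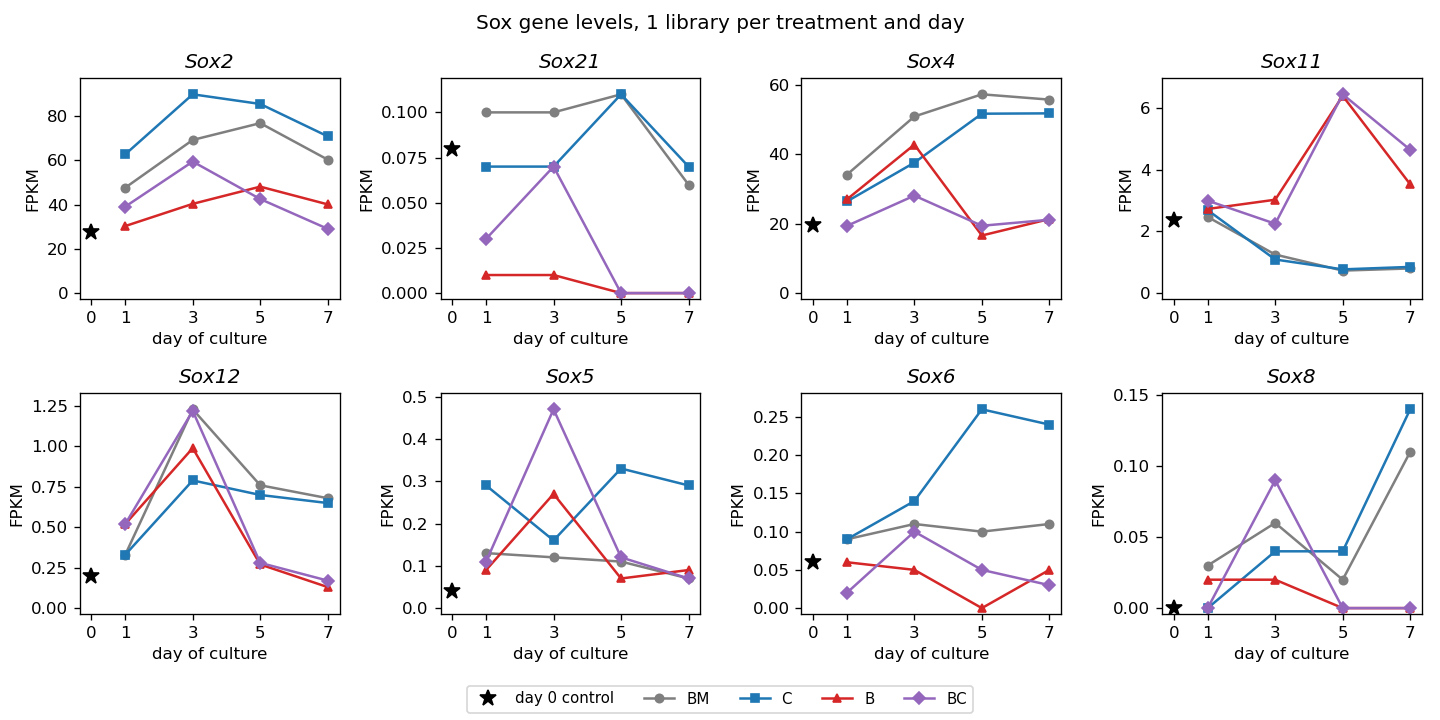
FPKM of each Sox gene (vertical axis, its own scale in each panel) against the day of culture, with 1 point per library, lines joining libraries of 1 treatment and a star for the day 0 control. Sox11 separates into a high pair (B and BC, 6.40 and 6.45 FPKM) and a low pair (BM and C, 0.73 and 0.77 FPKM) on day 5, and Sox4 separates the other way.

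Sox2, the SoxB1 factor of the progenitor state, was lower with bFGF on each day. Without bFGF, Sox2 was 47.66 FPKM in BM and 62.75 in C on day 1, 69.26 and 89.90 on day 3, 76.86 and 85.53 on day 5, and 60.36 and 70.89 on day 7. With bFGF, it was 30.32 FPKM in B and 39.10 in BC on day 1, 40.36 and 59.48 on day 3, 48.14 and 42.54 on day 5, and 40.12 and 29.06 on day 7. On unscaled FPKM both libraries with bFGF were below both without it on each of the 4 days, although the ranges over all days overlapped. The median gene was lower with bFGF on that scale too. Every cultured library was above the day 0 level of 27.72 FPKM. The mean bFGF effect over the 4 days was -0.48 ± 0.09 on the log2 scale (SE, 8 libraries against 8, edgeR's quasi-likelihood test, Benjamini-Hochberg adjusted p = 0.000370), a 1.39-fold fall. Because most genes moved with bFGF, the call by itself says little: 81.7% of 11272 genes tested were called in this comparison. In bulk RNA, fewer cells that express a gene and less RNA of it per cell cannot be told apart.

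On single days the Sox2 difference was near the limit of what 2 libraries against 2 could show. It was -0.59 ± 0.19 on day 1 (adjusted p = 0.0652), -0.58 ± 0.18 on day 3 (adjusted p = 0.0193), -0.38 ± 0.18 on day 5 (adjusted p = 0.0770) and -0.37 ± 0.19 on day 7 (adjusted p = 0.0884). Only the day 3 value passed the threshold, against 10.7%, 50.4%, 75.8% and 78.4% of all genes on days 1, 3, 5 and 7, and it did not pass without B or without C of day 3 (-0.39 and -0.46). The size on days 5 and 7 depended on the scaling, since on unscaled log2(FPKM + 1) values it was -0.83 (adjusted p = 0.00167, limma) and -0.92 (adjusted p = 0.000736, limma). On day 7 it was -0.06 without BC and -0.72 without B. Sox2 passed the threshold on day 1 without B or BC of day 3 or of day 7, on day 5 without B of day 5 or without B or BC of day 7, and on day 7 without B of day 7. The effect did not differ detectably between day 1 and day 7, with a change of 0.22 ± 0.26 (95% interval -0.35 to 0.79).

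Sox4 and Sox11, the SoxC factors, moved apart. Sox4 without bFGF was 34.13 FPKM in BM and 26.41 in C on day 1, 50.90 and 37.60 on day 3, 57.29 and 51.70 on day 5, and 55.76 and 51.80 on day 7. Sox4 with bFGF was 27.00 FPKM in B and 19.37 in BC on day 1, 42.79 and 28.09 on day 3, 16.60 and 19.41 on day 5, and 21.33 and 21.14 on day 7. The groups overlapped on days 1 and 3 and were clear of each other on days 5 and 7, when all 4 libraries with bFGF were near the day 0 level of 19.56 FPKM. On unscaled log2(FPKM + 1) values, where the median gene shifted by -0.25 over all days, Sox4 was lower with bFGF in 8 of 8 same-day pairs. How many other genes were so was not counted. The mean bFGF effect on Sox4 was -0.62 ± 0.08 (adjusted p = 1.90e-05). By day it was -0.31 ± 0.17 (adjusted p = 0.270), -0.23 ± 0.17 (adjusted p = 0.271), -1.14 ± 0.17 (adjusted p = 5.69e-05) and -0.79 ± 0.17 (adjusted p = 0.000901). Although days 5 and 7 passed the threshold and day 1 did not, the change from day 1 to day 7 itself was -0.48 ± 0.24 and did not (adjusted p = 0.0913), while on unscaled log2(FPKM + 1) values it was -0.92 (adjusted p = 0.00306, limma).

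Sox11 went the other way. Without bFGF it was 2.47 FPKM in BM and 2.69 in C on day 1, 1.25 and 1.09 on day 3, 0.73 and 0.77 on day 5, and 0.80 and 0.85 on day 7. With bFGF it was 2.73 FPKM in B and 3.00 in BC on day 1, 3.03 and 2.25 on day 3, 6.40 and 6.45 on day 5, and 3.53 and 4.65 on day 7. The libraries with bFGF were the higher ones on each day, by little on day 1 and by 8.77-fold (B over BM) and 8.38-fold (BC over C) on day 5. Expected counts behind these values were 114 to 433 without bFGF and 350 to 972 with it. The mean bFGF effect was 1.98 ± 0.09 on the log2 scale (adjusted p = 1.01e-09), a 3.94-fold rise.

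By day the bFGF effect on Sox11 was 0.23 ± 0.16 on day 1 (adjusted p = 0.395), 1.28 ± 0.18 on day 3 (adjusted p = 9.83e-05), 3.55 ± 0.18 on day 5 (adjusted p = 1.69e-08) and 2.85 ± 0.18 on day 7 (adjusted p = 3.73e-08). It grew between day 1 and day 7 by 2.62 ± 0.24 (adjusted p = 2.62e-06), where 65.4% of all genes were called for a change in either direction. The Sox11 rise with bFGF passed the threshold under every alternative tried on days 3, 5 and 7.

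**Figure D2:**
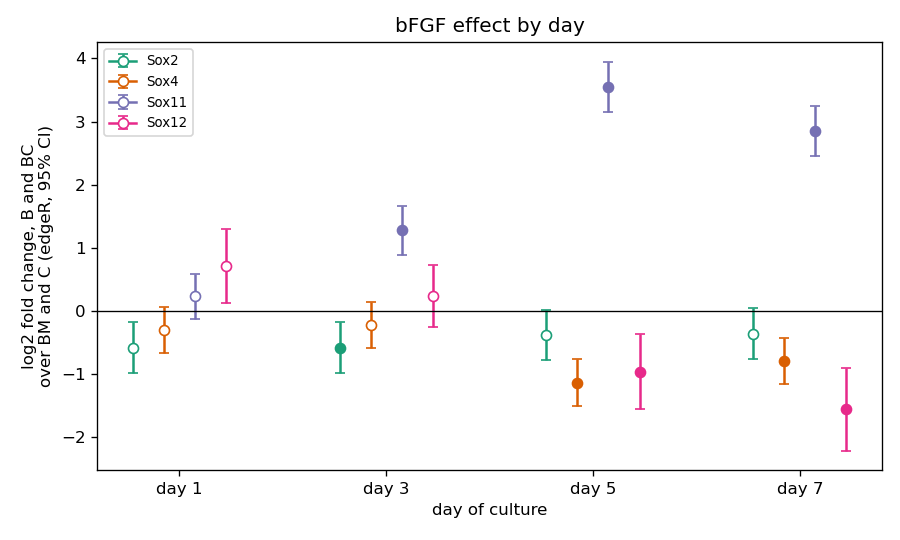
Log2 fold change of the libraries with bFGF (B and BC) over those without (BM and C) on each day, with the 95% interval from edgeR, filled where the adjusted p was under 0.05. Sox11 rises from 0.23 on day 1 to 3.55 on day 5, Sox4 lies at -1.14 on day 5, Sox12 (tested with no filter on low values) crosses from 0.71 on day 1 to -1.56 on day 7, and Sox2 stays between -0.59 and -0.37.

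Day 7 was also set against day 1, within the libraries without bFGF (BM and C) and within those with it (B and BC). Without bFGF, Sox11 fell by 1.66 ± 0.18 on the log2 scale from day 1 to day 7 (adjusted p = 7.47e-06) and Sox4 rose by 0.82 ± 0.17 (adjusted p = 0.00106), while the Sox2 difference was 0.23 ± 0.18 (adjusted p = 0.288). Here 63.8% of all genes were called. With bFGF, Sox11 rose by 0.96 ± 0.16 (adjusted p = 0.000166), and the Sox4 difference was 0.33 ± 0.17 (adjusted p = 0.0928, called without B of day 7), where 75.3% of all genes were called. Sox2 with bFGF was 0.45 ± 0.19 higher on day 7 than on day 1 (adjusted p = 0.0433) after scaling, but -0.01 on the unscaled FPKM, so no direction is given for it.

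The opposite courses of Sox4 and Sox11 were clearest in their ratio within a library, which does not depend on the scaling between libraries. Sox4 was 8.22 times Sox11 by FPKM on day 0. In BM and C the ratio was 13.8 and 9.82 on day 1, 40.7 and 34.5 on day 3, 78.5 and 67.1 on day 5, and 69.7 and 60.9 on day 7. In B and BC it was 9.89 and 6.46 on day 1, 14.1 and 12.5 on day 3, 2.59 and 3.01 on day 5, and 6.04 and 4.55 on day 7. From day 3 on, every library without bFGF had a ratio above every library with bFGF. Over the 17 libraries the log2(FPKM + 1) values of Sox4 and Sox11 had a Pearson r of -0.88, a description over libraries that share day, treatment and composition. Sox4 and Sox2 had an r of 0.70, and Sox2 and Sox11 an r of -0.69.

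**Figure D3:**
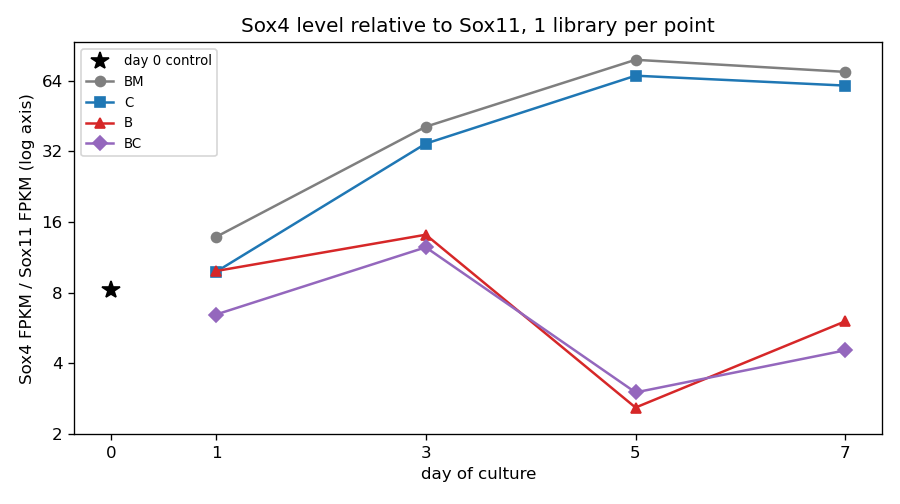
Ratio of Sox4 FPKM to Sox11 FPKM in each library (log axis) against the day of culture, 1 point per library. The ratio reaches 78.5 in BM and 67.1 in C on day 5 and lies at 2.59 in B and 3.01 in BC on the same day.

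Set against the day 0 control, which is a single library and allows no test, Sox2 and Sox4 on days 5 and 7 were closer to it in both cultures with bFGF than in both without. A difference of at least 1 on the log2(FPKM + 1) scale was counted. These values are unscaled and take in the shift of all genes. On day 7 the median gene stood at 0.19 (BM), 0.18 (C), -0.27 (B) and -0.33 (BC) against day 0. On day 7 Sox2 and Sox4 passed it in BM (at 1.10 and 1.47) and in C (at 1.32 and 1.36), and none of Sox2, Sox4 and Sox11 did in B or BC. On day 3 members passed it with bFGF too, Sox4 in B at 1.09 and Sox2 in BC at 1.07, and Sox4 in B was farther from day 0 than in C (0.91). Over all genes with a mean of at least 1 FPKM the shares past it on day 7 were 34.1% for BM and 35.4% for C, and with bFGF 35.1% for B and 37.8% for BC. Sox11 against day 0 was -0.91 in BM and -0.87 in C on day 7, and 0.42 in B and 0.74 in BC. On day 5 Sox11 stood 1.13 above day 0 in B and 1.14 in BC.

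The other 5 members were below the filter of 1 FPKM and were read from a fit with no filter over 18700 genes, in which 56.8% were called for the mean bFGF effect, 6.04%, 31.7%, 51.2% and 53.0% for days 1, 3, 5 and 7, and 41.0% for the change of the effect from day 1 to day 7. Their expected counts did not exceed 99 in a library, so their values are less certain than those of Sox2, Sox4 and Sox11.

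Sox12, the third SoxC gene, was lower with bFGF late in culture, as Sox4 was. In expected counts it was 28 in BM and 28 in C on day 1, 98 and 63 on day 3, 62 and 57 on day 5, and 56 and 54 on day 7. With bFGF it was 44 in B and 44 in BC on day 1, 81 and 99 on day 3, 21 and 22 on day 5, and 11 and 14 on day 7. It was thus the higher with bFGF on day 1 in both pairs and the lower on days 5 and 7 in both, with overlap on day 3. The bFGF effect was 0.71 ± 0.28 on day 1 (adjusted p = 0.169), -0.97 ± 0.28 on day 5 (adjusted p = 0.00714) and -1.56 ± 0.31 on day 7 (adjusted p = 0.000296). The change of the effect between day 1 and day 7 was -2.27 ± 0.42 (adjusted p = 0.000225), opposite in sign to that of Sox11. Between those days Sox12 rose by 0.88 ± 0.27 without bFGF (adjusted p = 0.0134, 41.6% of all genes called) and fell by 1.39 ± 0.32 with it (adjusted p = 0.00119, 49.4% called). Its mean over the days, -0.39 ± 0.14 (adjusted p = 0.0222), joined days of opposite sign and was lost without BM of day 3 or B of day 7 (-0.30 and -0.32), with DESeq2 (adjusted p = 0.0809) and in an additive model (adjusted p = 0.356). The day 5 call was lost without B of day 5 (-0.91), and the rise without bFGF was lost without any of its own 4 libraries (adjusted p up to 0.0851).

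Sox21, the SoxB2 factor, was low throughout and lower with bFGF. It had 4 to 8 expected counts in each of the 8 libraries without bFGF. With bFGF it had 1 in B and 2 in BC on day 1, 1 and 5 on day 3, and 0 in all 4 libraries of days 5 and 7. Summed over days 5 and 7 this was 25 counts in 4 libraries against 0. Per total count Sox21 was then at least 8.10-fold lower with bFGF. This takes 3 counts over the group as the most that a count of 0 allows. The mean effect was called (adjusted p = 0.000617), and the calls of day 5 (16 counts against 0, adjusted p = 0.00779) and day 7 (9 against 0, adjusted p = 0.0355) were lost without BC of day 5 and without any of the 4 day 7 libraries. The day 7 call was also lost with DESeq2 (adjusted p = 0.0625). The fitted fold is not given because it rests on the zeros. These floors are unscaled and would be lower with the TMM factors. They cover counting error of the zeros only, with the counts without bFGF taken as exact.

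The SoxD genes differed from each other. Sox6 without bFGF was 0.09 FPKM in BM and 0.09 in C on day 1, 0.11 and 0.14 on day 3, 0.10 and 0.26 on day 5, and 0.11 and 0.24 on day 7. With bFGF it was 0.06 FPKM in B and 0.02 in BC on day 1, 0.05 and 0.10 on day 3, 0 and 0.05 on day 5, and 0.05 and 0.03 on day 7. On unscaled FPKM, where the median gene was lower too, it was the lower with bFGF in 8 of 8 pairs. Its mean effect was -1.52 ± 0.36 (adjusted p = 0.00123). Over days 5 and 7 this rested on 110.14 expected counts in 4 libraries without bFGF against 17.88 in 4 with it, and the day 5 call (-2.50 ± 0.75, adjusted p = 0.00901) was lost without B or C of that day (-1.73 and -1.98). Without any 1 library the mean ran from -2.74 (without BC of day 5) to -1.26. Without BC of day 5 the only library with bFGF left on that day is at 0, so the fitted value (-7.38) depends on that zero and is no bound. Sox5 had a mean bFGF effect of -0.23 ± 0.22 (adjusted p = 0.450), which joined days of opposite sign. On day 3 the Sox5 level was 0.12 FPKM (BM) and 0.16 (C) without bFGF, and 0.27 (B) and 0.47 (BC) with bFGF, an effect of 1.36 ± 0.40 (adjusted p = 0.0136) that was lost without B of day 3 (1.29, adjusted p = 0.0534) or C of day 3 (1.02, adjusted p = 0.211). On days 5 and 7 the Sox5 values with bFGF were 0.07 to 0.12 FPKM and those without 0.07 to 0.33 FPKM.

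Sox8, the SoxE member, was at the limit of detection. It had no count on day 0, and 0 to 8 expected counts without bFGF and 0 to 5 with bFGF. On day 7 it had 6 counts (BM) and 8 (C) without bFGF and none with bFGF. Per total count, unscaled as for Sox21, it was at least 4.57-fold lower with bFGF on that day. That call (adjusted p = 0.0285) was lost without any 1 of the 4 day 7 libraries and with DESeq2 (adjusted p = 0.0782), and the mean effect over days was not called (adjusted p = 0.0606).

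The mean effect of CHIR99021 was not called for Sox2, Sox4 or Sox11, where 19.5% of all genes were called. Sox2 was higher with CHIR99021 in 6 of 8 same-day pairs, namely all 4 of C over BM and days 1 and 3 of BC over B, and lower in BC than in B on days 5 and 7 (42.54 against 48.14 and 29.06 against 40.12 FPKM). Its mean effect was 0.19 ± 0.09 (adjusted p = 0.169), and it passed the threshold without B or BC of day 7 (0.27). Sox4 was lower with CHIR99021 in 7 of 8 pairs, with a mean effect of -0.24 ± 0.08 (95% interval -0.42 to -0.05, adjusted p = 0.0660, from 0.0253 to 0.605 over the alternatives), and it passed the threshold without B or BC of day 5 (-0.30). Sox11 differed by 0.04 ± 0.09 (95% interval -0.15 to 0.23).

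Sox5 was the only 1 of the 5 low members called for CHIR99021, in the fit with no filter, where 11.4% of genes were called. Sox4 was called in that fit too (-0.25). Without bFGF Sox5 was 0.29 FPKM in C against 0.13 in BM on day 1 and 0.16 against 0.12 on day 3. On day 5 it was 0.33 against 0.11 and on day 7 0.29 against 0.07. With bFGF it was 0.11 FPKM in BC against 0.09 in B on day 1, 0.47 against 0.27 on day 3, 0.12 against 0.07 on day 5 and 0.07 against 0.09 on day 7. Sox5 was thus higher with CHIR99021 in 7 of 8 pairs, and its mean effect was 0.94 ± 0.22 (adjusted p = 0.00898). The call was lost on log2(FPKM + 1) values with limma (adjusted p = 0.0603) and in an additive model (adjusted p = 0.413). The effects of bFGF and CHIR99021 were also tested for interaction, where 0.692% of all genes were called and none of Sox2 (-0.22 ± 0.17), Sox4 (0.03 ± 0.17) or Sox11 (0.01 ± 0.18) was.

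**Figure D4:**
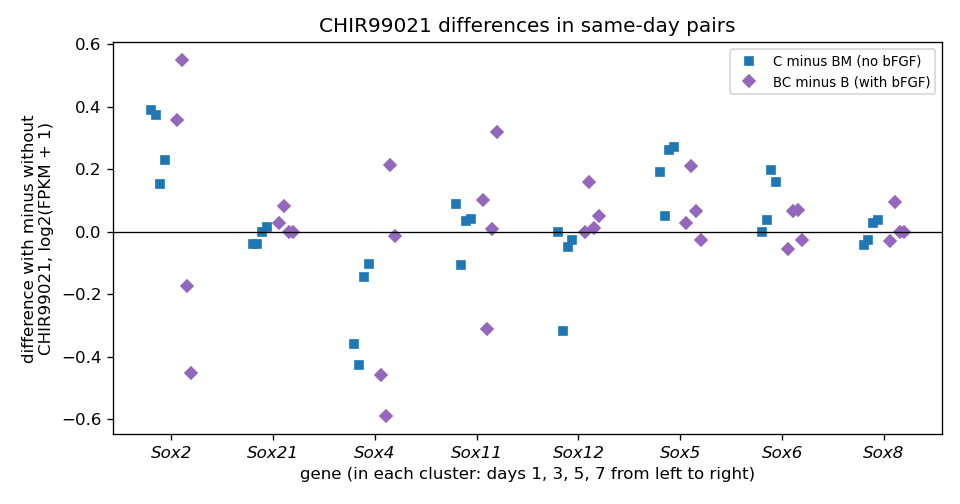
Difference with minus without CHIR99021 on the log2(FPKM + 1) scale in each same-day pair, squares for C minus BM and diamonds for BC minus B, days 1, 3, 5 and 7 from left to right within a cluster. Sox4 lies below 0 in 7 of 8 pairs and Sox5 above 0 in 7 of 8, and Sox2 lies above 0 in all 4 pairs without bFGF.

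Other Sox genes and known partners were read from fixed lists. Of 12 other Sox genes, 3 had a mean of at least 1 FPKM and all 3 were called for the mean bFGF effect, as were 81.7% of all genes. Sox3, a SoxB1 gene like Sox2, was 0.10 to 0.64 FPKM without bFGF and 0.69 to 3.06 FPKM with it, and rose by 3.02 ± 0.21. It passed the filter of 1 FPKM only through the libraries with bFGF, so its call is not independent of its being high there. Its expected counts were 4 to 25 without bFGF and 26 to 116 with it. Sox13, a SoxD gene, changed by -0.89 ± 0.08, and Sox9, the SoxE gene of Müller glia and progenitors, by -0.31 ± 0.11. The Sox9 mean joined days of opposite sign, 0.68 ± 0.23 on day 1 (adjusted p = 0.0808) and -1.26 ± 0.23 on day 5 (adjusted p = 0.000330). Sox2 and Sox3 of the same group thus differed in the direction of their values, with that limit on Sox3. Of 20 genes known to act with or under Sox factors in neural progenitors, 6 were tested, and 1 rose and 4 fell with bFGF, near the 81.7% of all genes called in this comparison. Vimentin (Vim), an intermediate filament of progenitors and glia, rose by 1.10 ± 0.07, and Pax6, a partner of Sox2, changed by -1.95 ± 0.15. Notch1, the receptor, changed by -0.92 ± 0.07, and its target Hes1 by -0.90 ± 0.20. The median over the 6 genes was -0.70, against 0.00 over all genes tested.

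Of 15 neuronal genes tied to the SoxC factors, 4 were tested and all 4 rose with bFGF after scaling, with a median of 0.57, where 81.7% of all genes were called and 49.5% of those calls were higher. Isl1, a factor of ganglion and amacrine cells, rose by 0.98 ± 0.12, Stmn1, a tubulin regulator, by 0.82 ± 0.07, Tubb3, a neuronal tubulin, by 0.33 ± 0.11, and Tead2, a Hippo pathway factor, by 0.30 ± 0.05. On unscaled log2(FPKM + 1) values Isl1 and Stmn1 rose by 0.46 and 0.51, while Tubb3 was at 0.0018 and Tead2 at 0.0073, neither of them called. Sox2, Sox4, Sox11, Sox3, Sox13, Sox9, Pax6, Notch1, Hes1 and Vim kept the direction given above on that scale.

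Genes whose levels ran most like those of a member were found by the Pearson r of log2(FPKM + 1) over the 17 libraries among genes with a mean of at least 1 FPKM. Vegfd (0.95), Trp53inp2 (0.94) and Napepld (0.94) were most like Sox2. Tmem203 (0.96), Acad11 (0.95) and Nfkbie (0.95) were most like Sox4, and Hsp90b1 (0.96), Rbm15 (0.96) and Pdp2 (0.96) most like Sox11. Slc46a3 (0.94), Acacb and Gmpr ran most like Sox12, Thrsp (0.94), Kctd14 and Insc like Sox6, and Sntb1 (0.90), Adra1d and Egln2 like Sox21. The highest r was lower for Sox5 (Isoc2a, 0.83, then Usp2 and Osgin1) and Sox8 (Plcg2, 0.84, then Trpm3 and Tns1). Of the members, only Sox2, Sox4 and Sox11 had that mean and could be listed, and none of them was among the 3 genes most like another member.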

How the data were processed

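Poly(A) RNA of mNRPCs was sequenced by the authors on the BGISEQ-500 platform. The submitters' processing notes name Bowtie2, RSEM and mm10, while the paper's methods name Bowtie 2 and eXpress, and no program version is given in the sources used here. For every gene the files deposited by the authors give an expected count (reads shared between genes are apportioned), and of these 63.91% to 66.65% per library were whole numbers. FPKM values were deposited as well, listed from 0.01, and a gene not listed was read as 0.

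The rounded expected counts of the 16 cultured libraries were fitted in edgeR 4.0.16 under R 4.3.3 (TMM scaling, glmQLFit and glmQLFTest, Benjamini-Hochberg adjustment over all genes tested, threshold 0.05) with a level for each of the 8 combinations of day and bFGF plus CHIR99021. A gene entered where its mean was 1 FPKM or more. Members below that were read from the fit with no filter. With 1 library per treatment and day, the spread, a biological coefficient of variation of 10% (10.2% with no filter), is the departure of CHIR99021 from its mean effect, on 7 residual degrees of freedom, and not the spread between cultures. At 17571973 to 19428744 counts per library, counting error is small for Sox2 and Sox4 and not for the 5 low members. This depth says nothing of the spread between cultures.

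The members and lists were chosen with earlier results of these data known. The text names the 8 members, the 3 genes most like each, and up to 4 genes per list with the largest bFGF effect. The alternatives, those of the 5 low members chosen after seeing the data, were no filter, a minimum mean FPKM of 5, DESeq2 1.42.0, RLE normalization, limma 3.58.1 on log2(FPKM + 1) and log2(FPKM + 0.1), an additive model, an exact sign-flip permutation test over 8 pairs, and leaving out each of 16 libraries. Fits were tested on simulated data. Positions are from GENCODE M21 (GRCm38.p6) and promoter sequences from RefSeq. Python 3.11.15, numpy 2.4.6, pandas 2.3.3, scipy 1.17.1 and matplotlib 3.10.9 were used.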

Additional observations from a re-analysis of the deposited data

Results flagged for a closer look

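The bFGF effect on Sox11 differed between day 1 and day 7 in the same fit, by 2.62 on the log2 scale (edgeR, adjusted p = 2.62e-06), with B and BC above BM and C on both days. The effect on Sox12 differed the other way, by -2.27 (adjusted p = 0.000225, no filter on low values). For Sox12 both pairs were higher with bFGF on day 1 and both lower on day 7, and on the log2(FPKM + 1) scale the mean difference moved by -0.73 between these days. No group had the 4 libraries needed to look for a single library far from the rest.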

How the results depend on the processing

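Of 28 called results of single members, 17 kept their call under every alternative, among them the mean bFGF effects on Sox2, Sox4, Sox11, Sox6 and Sox21. The exact sign-flip permutation test gave p = 0.00781 for the bFGF effect on Sox2, Sox4 and Sox11, the smallest p that 8 pairs allow. Any gene with all 8 pairs on 1 side gets this p, and the share of all genes that do was not computed. The test used unscaled log2(FPKM + 1) values, on which the median gene was lower with bFGF. Where calls changed, the cause was not tested. Sox2 on day 1 passed the threshold with no filter (-0.61) and with DESeq2 (-0.62). Sox2 on day 5 and day 7 passed it on log2(FPKM + 1) (-0.83 and -0.92), log2(FPKM + 0.1) (-0.84 and -0.94) and with a minimum mean FPKM of 5 (-0.50 and -0.49). Sox2 on day 7 against day 1 with bFGF was -0.01 on both unscaled scales (-0.0115 and -0.0120), and 0.38 and not called with no filter or a minimum of 5 (0.3762). The change of the Sox4 effect was called on log2(FPKM + 1) (-0.92) and log2(FPKM + 0.1) (-0.94). The CHIR99021 effect on Sox4 was called with no filter (-0.25) and DESeq2 (-0.24), and Sox4 on day 7 against day 1 with bFGF with DESeq2 (0.37). Genes called for CHIR99021 numbered 38 in the additive model, against 2199. Those called for the interaction, 78, became 224 with no filter, 242 with DESeq2, 45 with a minimum of 5, 1 on log2(FPKM + 1) and 0 on log2(FPKM + 0.1). On log2(FPKM + 0.1) with limma, 1489 genes had an unadjusted p under 0.05 for it, and edgeR gave 1571.

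Without each library in turn, genes called for the interaction ran from 2 to 633 and for bFGF on day 1 from 145 to 1784. The bFGF effect on Sox2 ran from -0.73 to -0.49 on day 1, from -0.79 to -0.39 on day 3, from -0.62 to -0.17 on day 5 and from -0.7246 to -0.0633 on day 7. Sox2 on day 7 against day 1 with bFGF ran from 0.10 to 0.76 and Sox4 from 0.16 to 0.50. The CHIR99021 effect ran from 0.14 to 0.27 on Sox2 and from -0.30 to -0.18 on Sox4. Pairing by replicate number could not be fitted, since each treatment and day had 1 library, and the pairs of the sign-flip test share only their day. Depth limited the 5 low members, whose alternatives were chosen after seeing the data and gave 27 lost and 15 gained calls beside 968 that kept their side of the threshold.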
